A study of Ovis aries with 30 samples.

Results

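This account follows 44 genes of the liver's extracellular matrix and of the cells that make it, in whole liver of 30 sheep lambs. The genes were chosen by name, and all 44 were among the 31304 gene entries of the deposited count table. They comprise 11 collagen chains, 5 elastic fibre and fibulin genes, 5 small leucine-rich proteoglycans, 4 adhesive or matricellular glycoproteins, 4 genes of cross-linking and collagen folding, 3 TIMP inhibitors with the protease MMP2, 6 stellate and mesenchymal cell genes and 5 contractile or filament genes. The lambs are first-generation offspring of ewes exposed to biosolids before and during pregnancy, or of control ewes. Biosolids are treated sewage sludge spread on pasture, a source of many environmental chemicals. There were 7 biosolids males, 7 control males, 8 biosolids females and 8 control females, each with its own tag number, which names the lamb below. Exposure was of the ewe, the control lambs had none, and no other treatment or allele is labelled. The sources used here do not state litter, breed or age at sampling. The p-values of group differences judge them against the spread between these lambs, which are treated as independent although siblings may be among them.

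The matrix of a healthy liver is sparse. Fibrillar collagens I, III and V surround the portal tracts and central veins, collagen IV forms the basement membranes and lines the sinusoids with fibronectin, and collagen VI forms beaded filaments between them. Hepatic stellate cells lie between the sinusoid and the hepatocytes, store retinoids, and are the main source of collagen once activated, while portal fibroblasts and vascular smooth muscle contribute around ducts and vessels. Hepatocytes also secrete some of these proteins, fibronectin above all. In whole tissue, fewer cells of a type and less RNA per cell cannot be told apart, and this holds for every level below.

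Library totals ran from 18.7 to 51.9 M counts (M, mega). The library of biosolids male 8778 stands apart: 87.5% of its counts lay on ribosomal RNA entries, against 0.299 to 7.69% in the other 29 libraries, and 2.34 M counts were left for all other genes. Results that rest on this lamb are therefore also given without it, or the lamb is named beside them. The 44 genes together held 0.316 to 0.728% of the counts outside ribosomal RNA, none was at 0 counts in any lamb, and all 44 passed the filter on low counts that left 17840 genes for testing. Hepatocyte markers (13 of 14 listed were in the table, ALB, TTR and APOA1 among them) summed to 69023 to 135414 CPM per lamb (CPM are counts scaled to the library size by TMM), with none at 0. The stellate cell markers RELN, HAND2, COLEC11 and PDGFRB were detected in all 30 lambs. The share of counts on 74 ribosomal protein genes fell into separate ranges, 1.09 to 1.38% in 13 lambs and 1.90 to 3.90% in the other 17. The lambs with low shares were spread unevenly over the groups: 4 of 7 biosolids males, 5 of 7 control males, 2 of 8 biosolids females and 2 of 8 control females. This share moved with many of the 44 genes and its values are given beside the results it touches.

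Levels of different genes were compared as CPM per kilobase of exon, averaged over the 30 lambs. Fibronectin (FN1; chromosome 2, 217330503 to 217399767 of assembly ARS-UI_Ramb_v3.0), which links collagen to cell-surface integrins, stood first at 309 CPM per kb, 4.10 times the next gene, and made up 38.9 to 67.0% of all counts on the 44 genes in a lamb. Biglycan (BGN) followed at 75.3 CPM per kb, then the metalloproteinase inhibitor TIMP3 at 71.4, the intermediate filament gene VIM at 67.3, the collectin COLEC11 at 62.5 and the collagen-binding SPARC at 59.5. Among the collagens the basement membrane chain COL4A1 led at 34.1 CPM per kb, followed by the fibrillar COL3A1 at 25.8 and by COL4A2 at 22.2. Of the other fibrillar chains COL1A1 was at 12.3, COL1A2 at 10.3, COL5A1 at 10.1 and COL5A2 at 6.70 CPM per kb. The lowest were TIMP2 at 1.06, the fibulin FBLN1 at 1.03, osteoglycin (OGN) at 0.692, the fibroblast surface gene THY1 at 0.541 and lysyl oxidase (LOX) at 0.305 CPM per kb. Neighbours in this order mostly overlapped: TIMP3, VIM, COLEC11 and SPARC all lay within 31 to 118 CPM per kb, the range of VIM over lambs. Levels per kilobase depend on how long and complete each exon model is, and that of TIMP3 holds 636 bases. That of TIMP2 holds 19753 bases. TIMP2 is therefore low per kilobase at a mean of 21.0 CPM, while TIMP1, at a mean of 4.74 CPM, ranks above it.

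**Figure D1:**
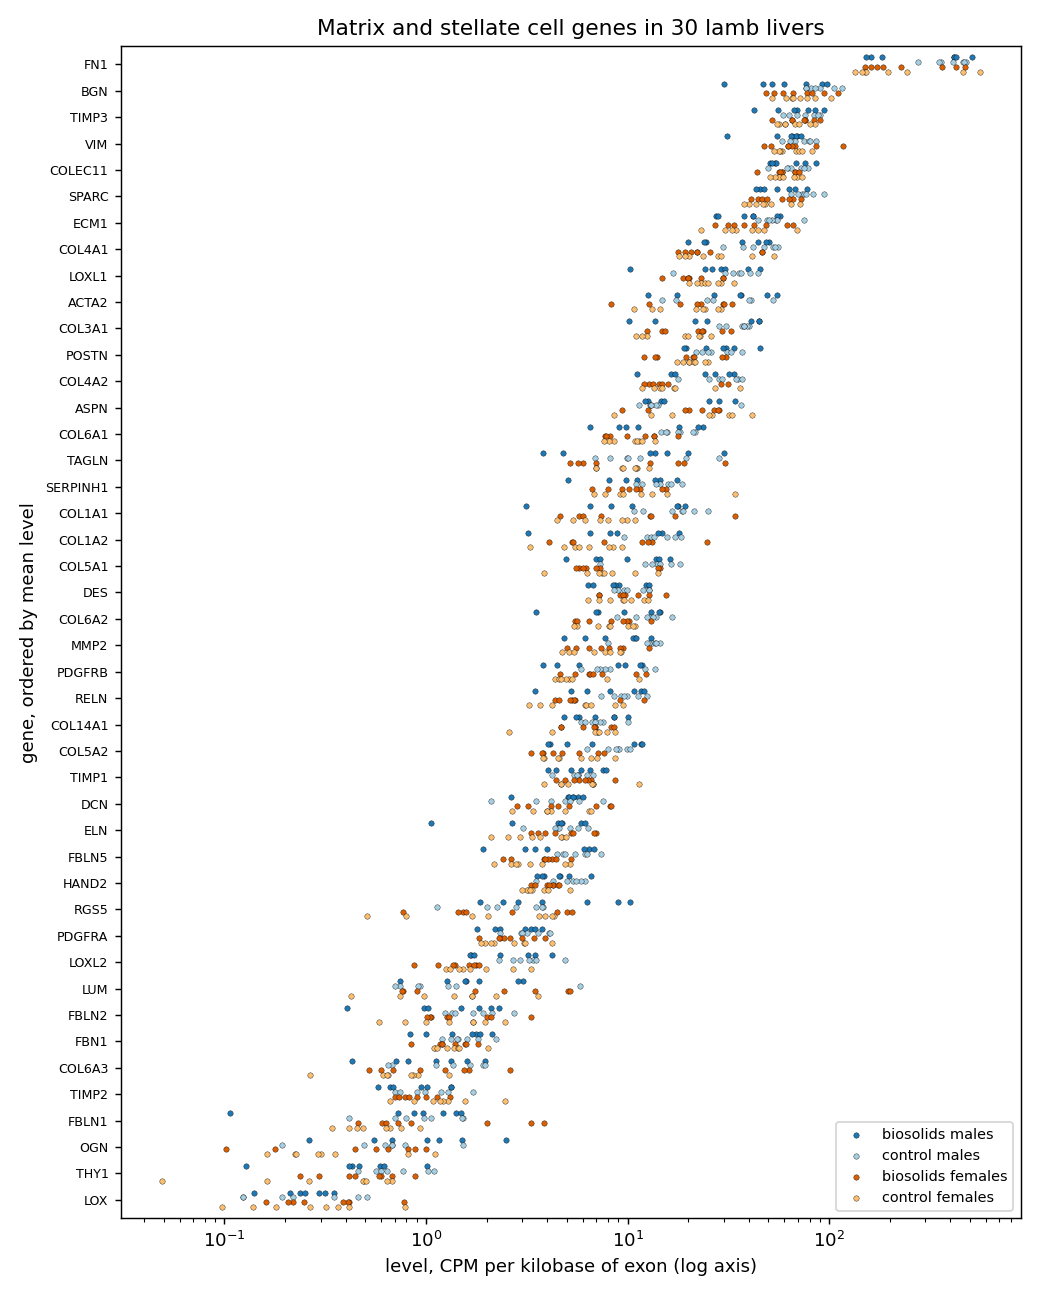
Level of each of the 44 genes in each of the 30 lambs, in CPM per kilobase of exon on a log axis, ordered by the mean over lambs, with the groups in separate lines within a gene. FN1 stands alone at the top, between 134 and 558 CPM per kb, and without male 8778 the highest lamb of a gene was 1.79 times (COLEC11) to 24.6 times (OGN) the lowest. With this lamb FBLN1 spans 36.4-fold, because 8778 had 1 count of it, and without it 11.3-fold.

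The genes differed in how steady they were among lambs of a group. The stellate cell genes COLEC11 and HAND2, a transcription factor of liver mesenchyme, were among the steadiest, with coefficients of variation within groups of 16.4% and 18.6%, with TIMP3 at 18.7% and SPARC at 19.4%. The widest were the keratan sulphate proteoglycan lumican (LUM) at 75.7%, FBLN1 at 74.8%, OGN at 68.6% and the pericyte gene RGS5 at 63.1%. Several of these are also scarce: LUM, FBLN1 and OGN each had 1 to 4 counts in their lowest lamb. COL1A1 and COL1A2, the chains of collagen I, varied by 52.7% and 45.4%, against 34.4% and 35.5% for COL4A1 and COL4A2.

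The first question of the design was whether biosolids lambs differed from control lambs of the same sex. In males, none of the 44 genes passed an adjusted p of 0.05 in edgeR's quasi-likelihood test (0% of the 17840 genes tested passed), and DESeq2 and limma voom also called none of the 44. Fitted values leaned down: 34 of 44 were below 0 with a median log2 fold change of -0.20, against a median of 0.01 over all genes tested, 51.3% of which were above 0. At an unadjusted p under 0.05, which is no call, 0 members were higher, against 3.29% of all genes, and 3 were lower (SPARC, BGN and MMP2), against 2.15% of all genes. In both directions together that is 3 of 44, against 5.44% of all genes. The smallest adjusted p among the members was 0.816. No member had groups that did not overlap, against 0.0561% of all genes.

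SPARC, a matricellular protein that binds collagen (chromosome 5, 60650238 to 60672558), spanned 114 to 202 CPM (median 143) in biosolids males, against 169 to 246 CPM (median 196) in control males. Of the biosolids males, 5 of 7 lay below all control males and 2 control males lay above all biosolids males, while the ranges overlapped. Its fitted log2 fold change, with SE, was -0.43 ± 0.16 and its adjusted p in edgeR was 0.816. MMP2, the gelatinase that degrades collagen IV and denatured collagen (chromosome 14, 23247440 to 23273464), spanned 9.58 to 25.9 CPM (median 21.1) in biosolids males, against 15.9 to 28.7 CPM (median 26.3) in control males. All 7 biosolids males were below the median of the control males, yet the groups overlapped: biosolids male 8695, at 25.9 CPM, lay above 3 control males, of which 8364, at 15.9 CPM, was far below the rest. The 3 biosolids males below all control males were 8735, 8764 and 8778, with ribosomal protein shares of 3.90, 2.81 and 3.22%. In the other 4 biosolids males the share was 1.14 to 1.33%, and in control male 8364 it was 2.21%. The log2 fold change of MMP2 was -0.44 ± 0.21, with an adjusted p of 0.816. BGN, a proteoglycan that binds collagen and is encoded on chromosome X (80758292 to 80772161), spanned 64.6 to 208 CPM (median 128) in biosolids males, against 163 to 249 CPM (median 183) in control males. Biosolids male 8778 was the lowest of all lambs here and 4 of 7 biosolids males lay below all control males. The log2 fold change was -0.47 ± 0.21, with an adjusted p of 0.816. Without male 8778 the values were -0.35 for BGN and -0.36 for MMP2, both above an unadjusted p of 0.05, and -0.39 for SPARC, which was the 1 member left below it, while 32 of 44 fitted values stayed below 0 with a median of -0.13.

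Among the collagens in males, all 11 fitted values lay below 0 and none passed. Male 8778 was the lowest biosolids male for all 11, and the collagen values in this paragraph include it. COL1A1 spanned 18.5 to 114 CPM (median 62.1) in biosolids males, against 63.4 to 148 CPM (median 110.1) in control males, with a log2 fold change of -0.56 ± 0.37. COL1A2 spanned 16.3 to 90.9 CPM (median 44.9) in biosolids males, against 48.6 to 93.1 CPM (median 68.2) in control males, with a value of -0.43 ± 0.33. Both had biosolids male 8778 as their lowest lamb, at 18.5 and 16.3 CPM, and 4 of 7 biosolids males lay below all control males. For the other fibrillar chains the values were -0.32 ± 0.27 for COL3A1, -0.38 ± 0.28 for COL5A1, which regulates fibril diameter, and -0.17 ± 0.24 for COL5A2. The basement membrane chains COL4A1 and COL4A2 had -0.36 ± 0.26 and -0.36 ± 0.27. The collagen VI chains had -0.30 ± 0.23 for COL6A1, -0.35 ± 0.24 for COL6A2 and -0.20 ± 0.35 for COL6A3. The fibril-associated COL14A1 had -0.00 ± 0.20, with medians of 50.3 CPM in biosolids and 50.0 CPM in control males. Its sign is thus not informative, as male 8778 was at 35.1 CPM. Outside the collagens, the contractile and filament genes were split, with RGS5 at 0.90 ± 0.48, ACTA2 (smooth muscle actin, a mark of activated stellate cells) at 0.12 ± 0.32, TAGLN at 0.13 ± 0.40, DES at -0.20 ± 0.18 and VIM at -0.26 ± 0.18. RGS5 spanned 10.2 to 56.3 CPM (median 20.7) in biosolids males, against 6.20 to 21 CPM (median 15.3) in control males. The 3 biosolids males above all control males were 8735 at 56.3, 8778 at 49.3 and 8764 at 34.4 CPM. Their ribosomal protein shares were 3.90, 3.22 and 2.81%, against 1.14 to 1.33% in the other 4 biosolids males. The part of the share in the RGS5 value was not tested. The RGS5 value thus includes a high level from the library of 8778. All 6 stellate and mesenchymal genes lay below 0 without passing, between -0.07 ± 0.13 for COLEC11 and -0.41 ± 0.37 for THY1.

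In females, again none of the 44 passed an adjusted p of 0.05 in edgeR (0% of all genes tested), and none in DESeq2 or limma voom. The fitted values leaned up: 32 of 44 were above 0, with a median log2 fold change of 0.11, against a median of -0.02 over all genes tested, 45.9% of which were above 0. Members at an unadjusted p under 0.05 were 3 higher in biosolids females (FBLN1, COL1A2 and COL6A3), against 1.5% of all genes, and 1 lower (TIMP2), against 2.15% of all genes, which is 4 of 44 against 3.65% in all. No member, and 0% of all genes, had groups that did not overlap. FBLN1, which encodes fibulin-1, a glycoprotein that binds fibronectin and elastic fibres (chromosome 3, 221797338 to 221879237), spanned 1.54 to 12.9 CPM (median 2.61) in biosolids females, against 1.14 to 3.14 CPM (median 1.87) in control females. Biosolids females 8649, 8668 and 8653, at 12.9, 11.1 and 6.74 CPM, lay above all control females, and the other 5 lay within their range. Its log2 fold change was 1.40 ± 0.40, and its adjusted p in edgeR was 0.95. COL1A2 (chromosome 4, 12552707 to 12589620) spanned 20.6 to 126 CPM (median 49.1) in biosolids females, against 16.6 to 47.4 CPM (median 30.9) in control females, with a log2 fold change of 0.72 ± 0.31 and an adjusted p of 1. Its partner chain COL1A1 (chromosome 11, 36191118 to 36208942) spanned 27.3 to 201 CPM (median 60.0) in biosolids females, against 26.5 to 64.2 CPM (median 45.4) in control females, with a value of 0.72 ± 0.35. In both genes 4 of 8 biosolids females lay above all control females, and female 8649 was far above the rest, at 201 CPM for COL1A1 and 126 CPM for COL1A2. COL6A3, the largest chain of collagen VI, spanned 5.60 to 28.1 CPM (median 11.7) in biosolids females, against 2.85 to 14 CPM (median 7.99) in control females, with a value of 0.68 ± 0.33, while COL6A1 and COL6A2 had 0.13 ± 0.21 and 0.05 ± 0.22. TIMP2, which inhibits MMP2 and also helps activate it, spanned 13.9 to 26.1 CPM (median 17.1) in biosolids females, against 13.1 to 48.9 CPM (median 23.6) in control females, and 7 of 8 biosolids females were below the control median. The log2 fold change was -0.48 ± 0.22, with an adjusted p of 1, and -0.28 without control female 8245, the highest control.

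Biosolids females 8649 and 8668, which led FBLN1, were also the 2 highest of all 30 lambs for FCGBP, KRT19 and MMP7. FCGBP, a mucus protein of goblet cells, was at 299 CPM in 8649 and 84.6 CPM in 8668, against 0.936 to 3.80 CPM in control females. The duct keratin KRT19 was at 47.9 and 17.9 CPM in these lambs, against 1.80 to 13.9 CPM in control females. The 8 mucous genes in the table summed to 1509 CPM in 8649 and 408 CPM in 8668, and to 52.8 to 562.6 CPM in the other 6 biosolids females, against 143 to 329 CPM in control females. Without both lambs the log2 fold change in females was 0.58 for FBLN1, 0.27 for COL1A2, 0.11 for COL1A1 and 0.30 for COL6A3. None of these had an unadjusted p under 0.05 without the lambs, TIMP2 alone did at -0.64, and 27 of 44 fitted values were above 0 with a median of 0.06. Among females VIM was also highest in these lambs, 219 CPM in 8649 and 161 CPM in 8668, against 99.7 to 153 CPM in control females. So were DCN (39.7 and 40.3 CPM), ELN (23.2 and 22.7), LUM (9.64 and 9.84) and TAGLN (21.4 and 34.3). Other members went the other way: 8649 was the lowest biosolids female for COL5A1, COL5A2, COL4A2, BGN, POSTN, ECM1 and LOXL1. The 6 stellate and mesenchymal genes were mixed. Of them THY1 was higher in both lambs than in any other female, at 1.89 CPM in 8649 and 2.44 CPM in 8668, against 0.136 to 1.87 CPM in control females. In contrast, 8649 was the lowest biosolids female for RELN (50.8 CPM), COLEC11 (62.9 CPM) and HAND2 (5.63 CPM), and 8668 was at 63.4, 84 and 7.24 CPM for these genes. PDGFRA, at 21.7 and 20.4 CPM in 8649 and 8668, and PDGFRB, at 38 and 39.8 CPM, lay within the range of the control females. The part of the mucous and duct genes in the FBLN1 and collagen I values was not tested.

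**Figure D2:**
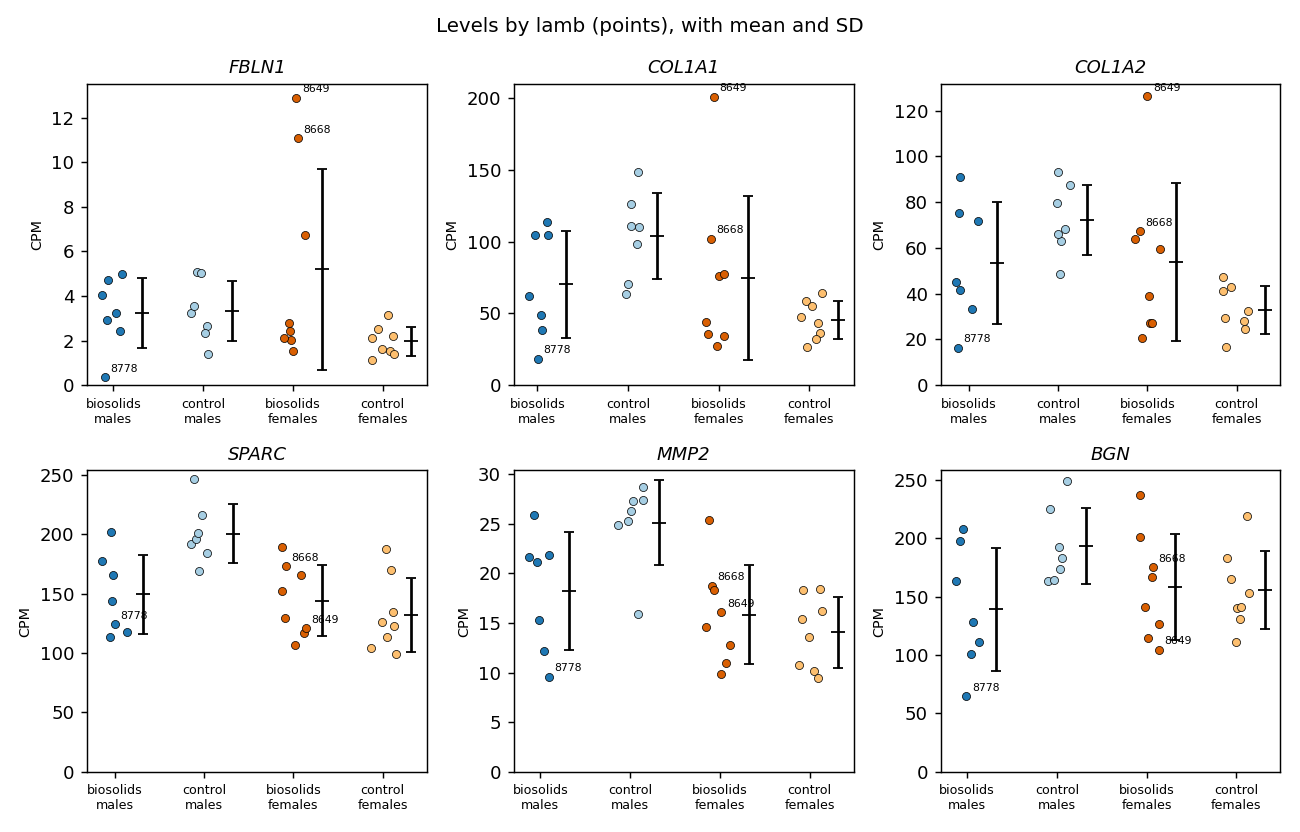
Level of 6 genes in each lamb, in CPM on a linear axis from 0, with points for lambs and bars for the group mean and SD (7 lambs a male group, 8 a female group); lambs 8649, 8668 and 8778 are labelled. Females 8649 and 8668 top FBLN1 and COL1A1 among biosolids females, male 8778 is the lowest biosolids male in FBLN1, COL1A1, COL1A2, MMP2 and BGN, and control males lie high in SPARC and MMP2.

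Of the remaining genes in females none had an unadjusted p under 0.05. The basement membrane chains COL4A1 and COL4A2 had log2 fold changes of -0.08 ± 0.25 and -0.08 ± 0.25, with 95% intervals of -0.59 to 0.43 and -0.60 to 0.44. FN1 spanned 1263 to 3940 CPM (median 1719) in biosolids females, against 1120 to 4663 CPM (median 1462) in control females, with a value of 0.08 ± 0.32. In males FN1 spanned 1270 to 4252 CPM (median 3485) in biosolids males, against 2300 to 4012 CPM (median 3427) in control males, with a value of -0.30 ± 0.35. The most precise bounds came from the steadier genes: the 95% interval in females ran -0.27 to 0.24 for COLEC11, -0.16 to 0.41 for TIMP3 and -0.12 to 0.44 for HAND2. Elastin (ELN) had 0.45 ± 0.23, fibrillin-1 (FBN1) -0.02 ± 0.17, FBLN2 0.19 ± 0.29 and FBLN5, which guides elastic fibre assembly, 0.16 ± 0.21. Of the cross-linking enzymes LOXL2 had -0.37 ± 0.22, LOXL1 -0.22 ± 0.20 and LOX 0.13 ± 0.36, and the collagen chaperone SERPINH1 (HSP47) had -0.31 ± 0.26. That last value includes control female 8263 at 71.9 CPM, while the medians of biosolids and control females were both 22.3 CPM.

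**Figure D3:**
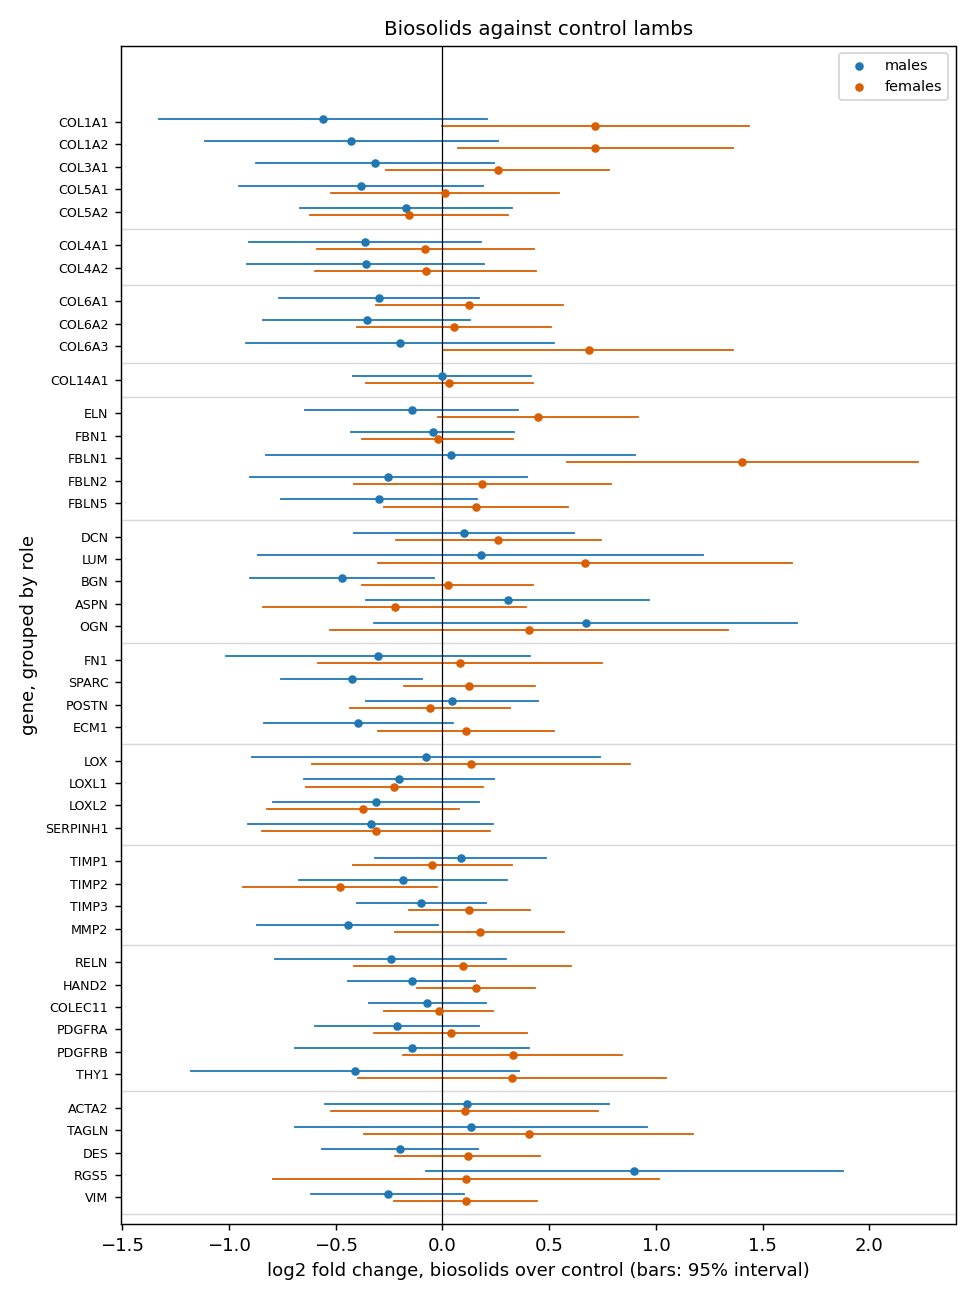
Log2 fold change, biosolids over control, for each of the 44 genes in males and in females, grouped by role; bars are 95% intervals from the 4-group edgeR model. Values in males lie mostly left of 0 and values in females mostly right of it, FBLN1 in females is farthest right at 1.40, and no gene passed an adjusted p of 0.05.

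Averaged over both sexes, none of the 44 passed in edgeR (0% of all genes), DESeq2 or limma voom, 18 fitted values were above 0 and 26 below, and the median was -0.04. FBLN1 was the 1 member higher at an unadjusted p under 0.05 (0.72 ± 0.29), against 2.11% of all genes. LOXL2 (-0.34 ± 0.16) and TIMP2 (-0.33 ± 0.16) were the 2 lower, against 2.2% of all genes, so that 3 members stood against 4.3% of all genes. Without male 8778, FBLN1 alone was left, and without females 8649 and 8668, TIMP2 alone. LOXL2, which cross-links collagen IV (chromosome 2, 42388408 to 42501478), spanned 5.80 to 14.8 CPM (median 8.13) in biosolids males, against 8.00 to 17.1 CPM (median 11.3) in control males. Among females, LOXL2 spanned 3.03 to 6.39 CPM (median 5.28) in biosolids females, against 4.38 to 11.6 CPM (median 5.55) in control females. Biosolids lambs overlapped control lambs in both sexes.

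The design also asks whether the effect of exposure differed between the sexes, tested as the log2 fold change in males minus that in females. None of the 44 passed an adjusted p of 0.05 (0% of all genes), and DESeq2 and limma voom called none of them. Fitted values were below 0 for 35 of 44 members, with a median of -0.31, against a median of 0.03 and 53.4% above 0 over all genes tested. At an unadjusted p under 0.05, 0 were higher, against 2.23% of all genes, and 5 lower, against 1.41%, which is 5 of 44 against 3.63% in all. The 5 were FBLN1 at -1.37 ± 0.58, COL1A1 at -1.28 ± 0.51, COL1A2 at -1.14 ± 0.46, MMP2 at -0.62 ± 0.28 and SPARC at -0.55 ± 0.22, all with an adjusted p of 0.951 in edgeR. The 3 that come first rest in part on females 8649 and 8668: without them the values were -0.54 for FBLN1, -0.67 for COL1A1 and -0.69 for COL1A2, and SPARC, at -0.54, was the 1 member left at an unadjusted p under 0.05. The leaning of the list in opposite directions in the sexes uses separate lambs for each sex, but the genes within it move together, as described further on, so its 44 values are not 44 independent observations.

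Males were then compared with females within each exposure group. In biosolids lambs none of the 44 passed in edgeR (0.0953% of all genes did), DESeq2 or limma voom, 28 fitted values were above 0, and the median log2 fold change was 0.10, against 0.00 over all genes. Of the 44, 4 were higher in males at an unadjusted p under 0.05, against 2.39% of all genes, and 0 lower, against 2.46%, which is 4 members against 4.85% in all. LOXL2 came first at 0.85 ± 0.23, with an adjusted p of 0.389 in edgeR, and all 7 biosolids males lay above the median of the biosolids females. It spanned 5.80 to 14.8 CPM (median 8.13) in biosolids males and 3.03 to 6.39 CPM (median 5.28) in biosolids females, and the ranges overlapped, as for all members (0.0673% of all genes did not overlap). The others were periostin (POSTN), a matricellular protein, at 0.52 ± 0.19, COL5A2 at 0.63 ± 0.23 and OGN at 0.97 ± 0.47, which was 0.63 with an unadjusted p of 0.188 without biosolids male 8690. OGN spanned 1.42 to 13.5 CPM (median 5.47) in biosolids males and 0.55 to 5.45 CPM (median 3.28) in biosolids females. Without male 8778, 8 members were at an unadjusted p under 0.05, COL3A1, COL6A1, LOXL1 and ACTA2 being added, all higher in males.

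In control lambs the members leaned to males. This comparison shares its control males with the exposure contrast in males and its control females with that in females, so the values are not independent of those above, and its difference from the sex contrast in biosolids lambs is the interaction already given. By edgeR none of the 44 passed an adjusted p of 0.05 (0.0841% of all genes did, 0.0617% higher and 0.0224% lower in males), and the smallest adjusted p was 0.136, for MMP2. DESeq2 called 2 members, MMP2 (adjusted p 0.0246) and SPARC (0.0374), and limma voom called 2, MMP2 and HAND2 (both 0.0162), all higher in males. In control lambs 20 members were higher in males at an unadjusted p under 0.05, against 7.74% of all genes, and 0 lower, against 11.1%, which is 20 of 44 against 18.9% in all. In all, 40 of 44 fitted values were above 0, with a median of 0.47, against -0.04 over all genes, 45.4% of which were above 0. The 4 below 0 were ASPN (-0.58 ± 0.31), LOX (-0.18 ± 0.38), TIMP1 (-0.14 ± 0.19) and TIMP2 (-0.26 ± 0.23). By role, all 10 chains of collagens I, III, IV, V and VI were among the 20, with 4 of 6 stellate and mesenchymal genes, 3 of 4 adhesive glycoproteins, FBLN5, LOXL2 and MMP2, and with none of the 5 proteoglycans or the 5 contractile and filament genes.

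MMP2 spanned 15.9 to 28.7 CPM (median 26.3) in control males, against 9.44 to 18.5 CPM (median 14.5) in control females, and 6 of 7 males lay above all females. Its log2 fold change was 0.84 ± 0.20 (SE). SPARC spanned 169 to 246 CPM (median 196) in control males, against 99 to 188 CPM (median 124) in control females, with 0.60 ± 0.15, and 5 males lay above all females. Groups did not overlap for 3 members, COL1A2, COL3A1 and COL6A1, against 0.213% of all genes tested. COL3A1, the chain of reticular fibres (chromosome 2, 120362888 to 120403111), spanned 155 to 218 CPM (median 207) in control males, against 60.2 to 142 CPM (median 108) in control females, with 0.98 ± 0.26. COL1A2 spanned 48.6 to 93.1 CPM (median 68.2) in control males, against 16.6 to 47.4 CPM (median 30.9) in control females, with 1.14 ± 0.32. COL6A1 (chromosome 1, 266407449 to 266428488) spanned 57.9 to 86 CPM (median 70.7) in control males, against 30.2 to 54.4 CPM (median 43.8) in control females, with 0.77 ± 0.22. COL1A1 overlapped in a single lamb of each sex, control male 8382 at 63.4 CPM and control female 8313 at 64.2 CPM, and had 1.19 ± 0.36. These 6 genes encode structural collagen, a collagen-binding protein and a gelatinase, and the adjusted p of each was between 0.136 and 0.198 in edgeR. Among the stellate cell genes HAND2 (chromosome 2, 107231670 to 107234695) spanned 5.95 to 10.3 CPM (median 9.05) in control males, against 5.05 to 8.77 CPM (median 5.60) in control females, with 0.49 ± 0.14. RELN, the secreted glycoprotein reelin, had 0.70 ± 0.25, PDGFRB, the receptor of platelet-derived growth factor B, 0.55 ± 0.26 and THY1 0.84 ± 0.36, whereas COLEC11 had 0.13 ± 0.13 and PDGFRA 0.33 ± 0.18 without an unadjusted p under 0.05. The contractile genes ACTA2 (0.59 ± 0.31), TAGLN (0.46 ± 0.39) and DES (0.16 ± 0.17) did not reach it either.

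**Figure D4:**
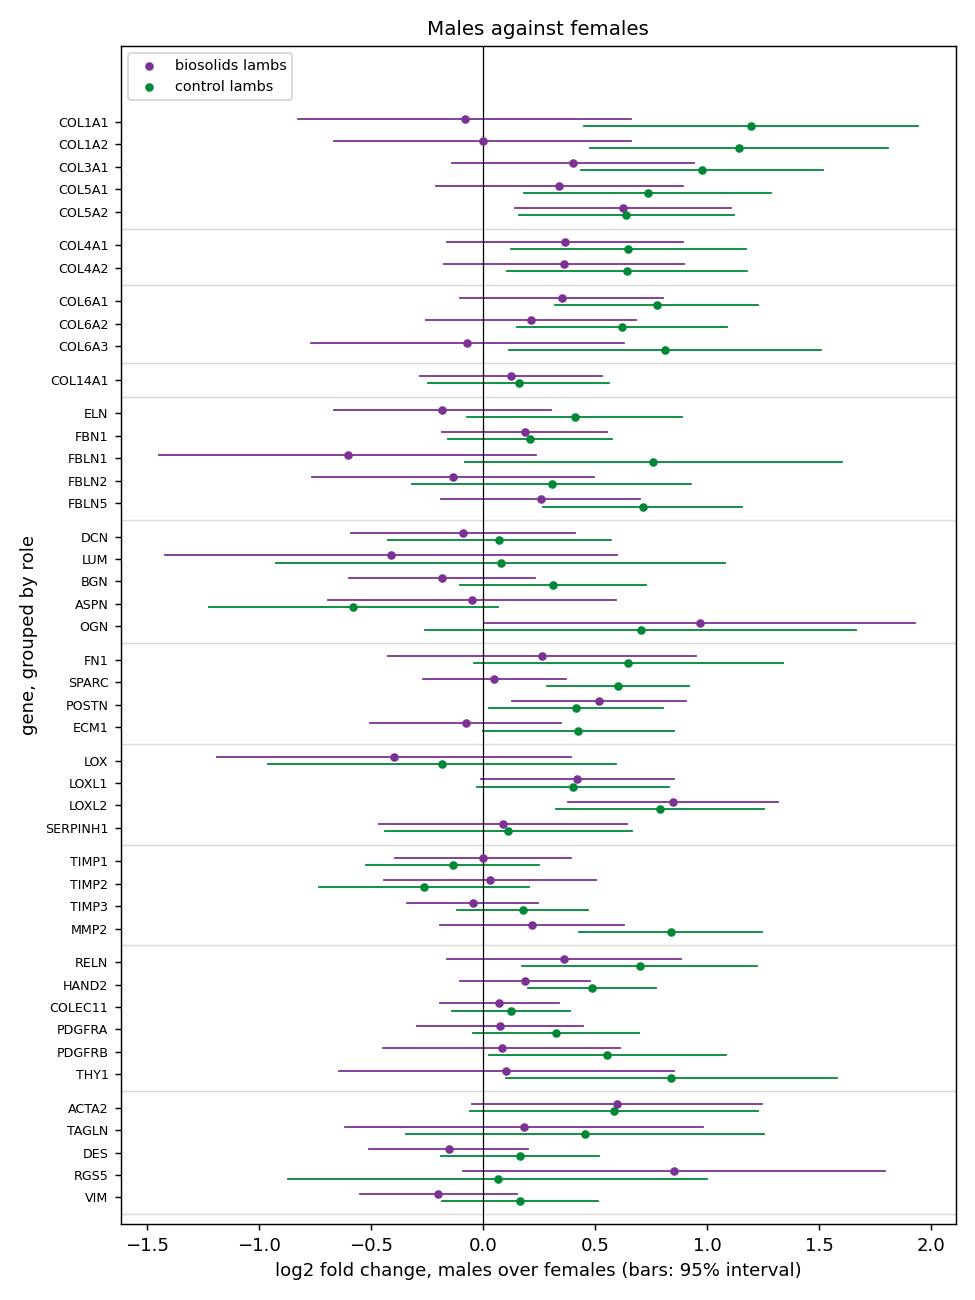
Log2 fold change, males over females, for each of the 44 genes in biosolids lambs and in control lambs, grouped by role; bars are 95% intervals from the 4-group edgeR model. In control lambs 40 of 44 points lie right of 0 and the intervals of all 10 chains of collagens I, III, IV, V and VI exclude 0, while in biosolids lambs most intervals include it.

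The sex difference in controls moved with the share of counts on ribosomal protein genes, which had a median of 1.23% in control males and 2.53% in control females. Across all 30 lambs with the group means in the model, 24 of 44 members had a slope on the log2 of this share at an adjusted p under 0.05 in edgeR, against 42.4% of all genes. Of these 19 were lower with a higher share (21.4% of all genes) and 5 higher (21% of all genes). FN1 had a slope of -1.0 ± 0.08 log2 units per doubling of the share, and spanned 2919 to 4663 CPM in the 13 lambs with a share under 1.5% and 1120 to 3027 CPM in the other 17. COL4A1 (-0.77 ± 0.06) and COL4A2 (-0.76 ± 0.06) were alike, as were PDGFRB (-0.74 ± 0.08), COL5A1 (-0.72 ± 0.09) and RELN (-0.69 ± 0.09). The 5 members higher with a higher share were LUM (1.24 ± 0.23), the proteoglycan asporin (ASPN; 0.87 ± 0.11), TAGLN (0.71 ± 0.20), DES (0.31 ± 0.09) and TIMP1 (0.29 ± 0.10). COL1A1 and COL1A2 had slopes of -0.16 ± 0.24 and -0.19 ± 0.21 and did not pass. The share on gene entries under 1 kb of exon moved in the same way, with medians of 3.87% in control males and 6.75% in control females. The ribosomal protein share was then put in the model as a term, a fit added after the data were seen. With it 15 members were higher in control males at an unadjusted p under 0.05 and 0 lower, against 4.62% of all genes in either direction. The median of the 44 was 0.26. Of the 20 members without the term 11 were among the 15, including COL1A1 (1.11), COL1A2 (1.04), COL3A1 (0.71), MMP2 (0.53) and SPARC (0.48). Of the 10 collagen chains 5 were left, and COL4A1 was at 0.21 and COL4A2 at 0.20. None passed an adjusted p of 0.05 with the term, and the smallest was 0.497. In the exposure contrasts with the term, the same 3 members were lower in males at an unadjusted p under 0.05 (4.38% of all genes in either direction) and the same 5 in the interaction (3.73%). In females 5 members were higher (4.96% of all genes in either direction). Of these FBLN1 and COL1A2 were among the 4 without the term, and COL1A1, ELN and PDGFRB were added. COL6A3 and TIMP2 were no longer under 0.05. Over both sexes FBLN1 and LOXL2 were left (4.98% of all genes in either direction), and TIMP2 was no longer under 0.05.

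**Figure D5:**
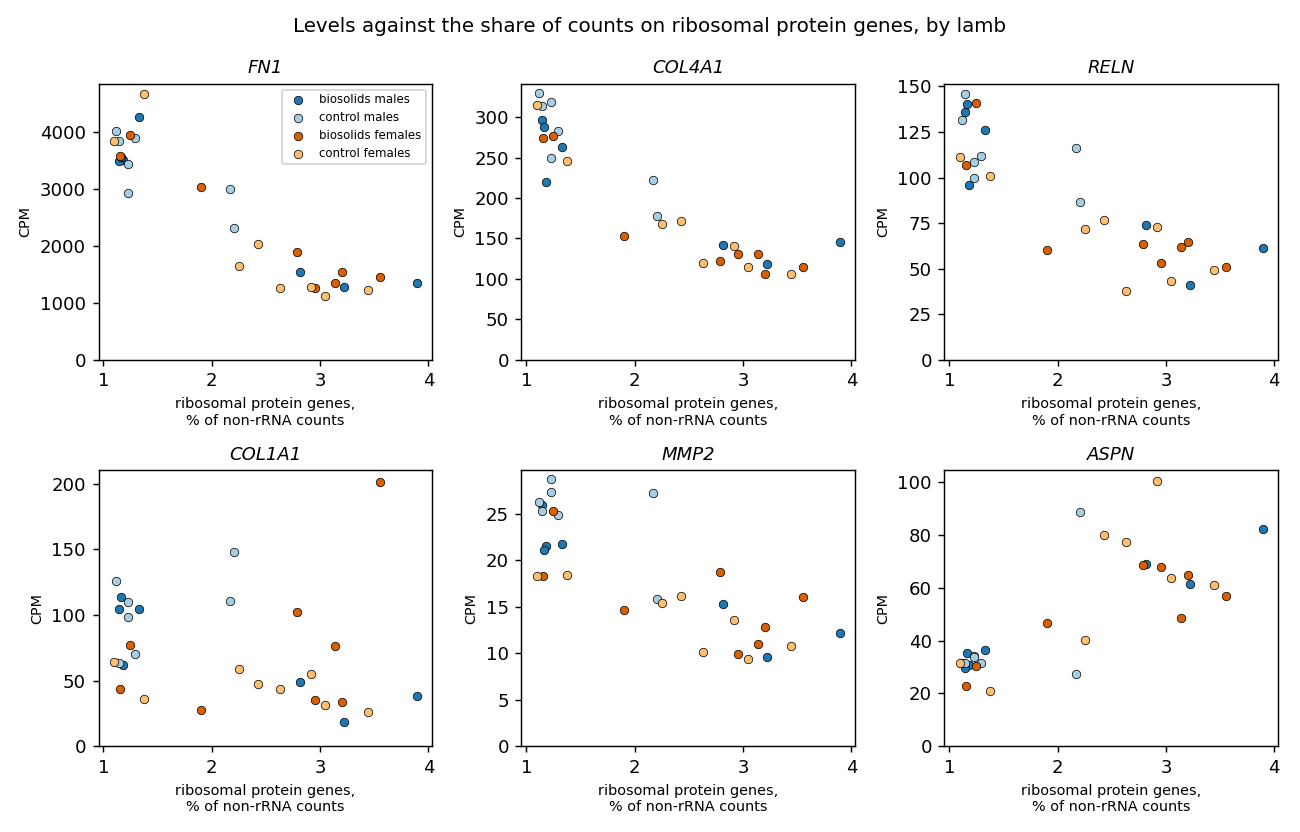
Level of 6 genes in each lamb (CPM, linear axis from 0) against the percentage of counts outside ribosomal RNA that lay on 74 ribosomal protein genes, coloured by group. FN1, COL4A1 and RELN are high in the 13 lambs with a share under 1.5% and low in the others, and ASPN runs the other way. COL1A1 overlaps widely, at 36.3 to 126 CPM (median 77.4) in the 13 lambs and 18.5 to 201 CPM (median 47.5) in the others.

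Of 12 pairs tested, 4 join chains that assemble into 1 molecule, and these varied closely together from lamb to lamb. Correlations were computed over the 30 lambs on deviations of log2 CPM from the group mean, with permutation within groups. COL4A1 and COL4A2, neighbours on chromosome 10, had r = 0.974 and rho = 0.957, with permutation p-values of 1e-05, the smallest that 100000 permutations can give, and r = 0.966 without the 2 lambs farthest from the median of COL4A1. Within the ranges of the ribosomal protein share r was 0.985 in the 13 lambs with a low ribosomal protein share and 0.824 in the other 17. Values of r by range, here and below, used deviations from the mean of the whole group, which holds lambs of both ranges. They therefore can still carry differences between the ranges, and they have no p-value. COL1A1 and COL1A2, on chromosomes 11 and 4, had r = 0.964 and rho = 0.962, the same p-values, and r = 0.942 without lambs 8778 and 8649. For these chains r was 0.897 in the 13 lambs with a low ribosomal protein share and 0.982 in the other 17. COL6A1 with COL6A2 had r = 0.928 and rho = 0.915, and COL5A1 with COL5A2 r = 0.884 and rho = 0.867, each with permutation p-values of 1e-05 and adjusted values of 2e-05 for r over the 12 pairs. Without the 2 farthest lambs r was 0.907 for the collagen VI pair and 0.886 for the collagen V pair. For collagen VI r was 0.91 in the 13 lambs with a low ribosomal protein share and 0.937 in the other 17, and for collagen V it was 0.881 in the 13 lambs with a low ribosomal protein share and 0.651 in the other 17. COL6A3, which assembles with COL6A1 and COL6A2, was in none of the pairs, and its slope on the ribosomal protein share was 0.01 ± 0.22, against -0.49 ± 0.10 for COL6A1 and -0.43 ± 0.12 for COL6A2. All lambs share the same tissue and scaling, so these values describe joint variation only.

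For the 8 pairs of separate molecules, r without the 2 lambs farthest from the median of the first gene is given too. COL1A1 with COL3A1, the main chains of collagens I and III, had r = 0.846 and rho = 0.854 (permutation p = 1e-05 and 1e-05, adjusted 2e-05 and 1.71e-05), and r = 0.835 without those lambs. The proteoglycans DCN and LUM, which both bind collagen fibrils, had r = 0.765 and rho = 0.81 (permutation p = 2e-05 and 1e-05, adjusted 3.43e-05 and 1.71e-05), and r = 0.771 without those lambs. The growth factor receptors PDGFRA and PDGFRB had r = 0.759 and rho = 0.718 (permutation p = 4e-05 and 0.00011, adjusted 6e-05 and 0.000165), and r = 0.687. Within the ranges of the share this r was 0.603 in the 13 lambs with a low ribosomal protein share and 0.305 in the other 17, lower than over all lambs in both. The contractile genes ACTA2 and TAGLN had r = 0.777 and rho = 0.811 (permutation p = 1e-05 and 1e-05, adjusted 2e-05 and 1.71e-05), and r = 0.743. ACTA2 with DES had r = 0.542 and rho = 0.597 (permutation p = 0.00432 and 0.00138, adjusted 0.00576 and 0.00184), and r = 0.506. For ACTA2 with DES r was -0.0464 in the 13 lambs with a low ribosomal protein share and 0.806 in the other 17. The difference between the ranges was not tested. ELN with FBN1, the core and the scaffold of elastic fibres, had r = 0.529 and rho = 0.459 (permutation p = 0.0112 and 0.0194, adjusted 0.0135 and 0.0232), and r = 0.449. Without male 8778 this pair had r = 0.459 and rho = 0.322, the rho at a permutation p of 0.104. COL1A1 with its chaperone SERPINH1 had r = 0.407 and rho = 0.445 (permutation p = 0.0266 and 0.0235, adjusted 0.029 and 0.0256), and r = 0.427. Without male 8778 that pair had r = 0.259 at a permutation p of 0.156. TIMP1 with MMP2 had r = -0.134 and rho = -0.241 (permutation p = 0.516 and 0.241, adjusted 0.516 and 0.241), and r = -0.085. Without male 8778 this pair had r = -0.307 (permutation p = 0.137, adjusted 0.149) and rho = -0.411 (permutation p = 0.0442, adjusted 0.053), and with all lambs r was -0.314 in the 13 lambs with a low ribosomal protein share and 0.44 in the other 17, of opposite sign in the ranges.

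Of the proteoglycans, which bind fibrils and regulate their spacing, none separated the groups, and LUM, OGN and ASPN spread more widely within them (75.7%, 68.6% and 44%) than DCN (33.6%) and BGN (25.9%). LUM spanned 1.42 to 5.78 CPM (median 3.02) in biosolids males, against 1.34 to 11 CPM (median 1.78) in control males. Among females, LUM spanned 1.45 to 9.84 CPM (median 3.98) in biosolids females, against 0.806 to 6.86 CPM (median 2.91) in control females. Control male 8364 alone was at 11 CPM, and all other control males were at or below 2.69 CPM. The ribosomal protein share was 2.21% in 8364, 2.17% in control male 8408 and 1.12 to 1.29% in the other 5 control males. Male 8364 was also the highest control male for ASPN. This gene spanned 29.6 to 82.3 CPM (median 36.5) in biosolids males, against 27.5 to 88.4 CPM (median 31.5) in control males. Among females, ASPN spanned 22.8 to 68.8 CPM (median 52.6) in biosolids females, against 20.8 to 100.4 CPM (median 62.3) in control females. Groups overlapped in both sexes for LUM and ASPN, and the remaining members of the family were alike in this. DCN, encoding decorin, spanned 12.8 to 29.3 CPM (median 26) in biosolids males, against 10.2 to 36.8 CPM (median 23.7) in control males, and 8778 was the lowest biosolids male. Among females, DCN spanned 13.7 to 40.3 CPM (median 23.5) in biosolids females, against 12.9 to 31.9 CPM (median 19.8) in control females. OGN was scarcer, and the groups overlapped for it as well. It spanned 1.42 to 13.5 CPM (median 5.47) in biosolids males, against 1.05 to 8.23 CPM (median 3.67) in control males. Among females, OGN spanned 0.55 to 5.45 CPM (median 3.28) in biosolids females, against 0.885 to 6.02 CPM (median 1.60) in control females.

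Of the inhibitors of metalloproteinases, TIMP1 and TIMP3 had overlapping groups and no unadjusted p under 0.05 in any exposure contrast. TIMP1, a broad inhibitor encoded on chromosome X, spanned 3.19 to 6.18 CPM (median 4.68) in biosolids males, against 3.35 to 5.34 CPM (median 4.53) in control males. Among females, TIMP1 spanned 3.49 to 6.89 CPM (median 4.71) in biosolids females, against 3.06 to 9.01 CPM (median 4.66) in control females. TIMP3 stays bound to the matrix and was the most abundant of the family per kilobase. It spanned 27 to 60.0 CPM (median 44) in biosolids males, against 37.6 to 57 CPM (median 48.4) in control males. Among females, TIMP3 spanned 33.1 to 57.3 CPM (median 48) in biosolids females, against 35.2 to 54.2 CPM (median 40.6) in control females. The lectin gene COLEC11 was similarly steady. It spanned 73.3 to 124 CPM (median 77.7) in biosolids males, against 71.2 to 113 CPM (median 92.5) in control males. Among females, COLEC11 spanned 62.9 to 101.2 CPM (median 83.6) in biosolids females, against 72.7 to 105 CPM (median 83.1) in control females. The log2 fold change for exposure in males was 0.09 ± 0.20 for TIMP1, -0.10 ± 0.15 for TIMP3 and -0.07 ± 0.13 for COLEC11, none of them past the test.

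Among the scarce genes, LOX, the founding enzyme of collagen and elastin cross-linking, spanned 0.71 to 1.77 CPM (median 1.27) in biosolids males, against 0.622 to 2.57 CPM (median 1.10) in control males. Among females, LOX spanned 0.809 to 3.91 CPM (median 1.60) in biosolids females, against 0.493 to 3.95 CPM (median 1.48) in control females. THY1, a surface protein of portal fibroblasts, was similarly scarce, with overlapping groups. It spanned 0.355 to 2.81 CPM (median 1.29) in biosolids males, against 1.27 to 3.05 CPM (median 1.78) in control males. Among females, THY1 spanned 0.658 to 2.44 CPM (median 1.43) in biosolids females, against 0.136 to 1.87 CPM (median 1.36) in control females. ECM1 restrains activation of latent TGF-beta in the liver of mice. It spanned 50.5 to 104 CPM (median 76.7) in biosolids males, against 81.6 to 138 CPM (median 95.8) in control males, with a log2 fold change of -0.39 ± 0.21. Among females, ECM1 spanned 49.8 to 121 CPM (median 73.7) in biosolids females, against 42.4 to 127 CPM (median 69.6) in control females. For SERPINH1, the collagen chaperone, 1 control female stood out, 8263 at 71.9 CPM. It spanned 10.6 to 37.1 CPM (median 23.3) in biosolids males, against 23.1 to 39.3 CPM (median 30.5) in control males. Among females, SERPINH1 spanned 14 to 32.5 CPM (median 22.3) in biosolids females, against 14.3 to 71.9 CPM (median 22.3) in control females. For the elastic fibre genes FBN1 and FBLN2 and the collagen COL14A1 groups overlapped and medians lay close together. Group medians ran from 18.4 to 24 CPM for FBN1, 6.77 to 9.06 CPM for FBLN2 and 50.0 to 51.7 CPM for COL14A1. Several members overlap other genes in the annotation: COL1A1 overlaps the protein-coding LOC114116862, ASPN and OGN lie within CENPP, TIMP3 within SYN3, TIMP1 overlaps SYN1, ARAF and ZNF81, TIMP2 overlaps CEP295NL, and HAND2 and THY1 overlap long noncoding RNAs. These are overlaps of whole gene spans, and shared exons were not examined. The strand setting of the counting is unknown here, and whether any reads of these genes and their partners were mixed was not tested.

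Neighbouring pathways gave no calls either: of 5 lists of matrix-related genes and 8 of cell types, none had a member at an adjusted p under 0.05 in any of the 6 edgeR comparisons. Counts of genes higher and lower at an unadjusted p under 0.05, in this order, follow for exposure in males, exposure in females and sex in controls. Over all genes tested the shares were 3.29 and 2.15% for exposure in males, 1.5 and 2.15% for exposure in females and 7.74 and 11.1% for sex in controls. For 26 genes of collagen processing (prolyl and lysyl hydroxylases, foldases and propeptide proteases) they were 0 and 1 (exposed males), 1 and 0 (exposed females) and 6 and 0 (sex in controls). The smallest p for exposure were those of TLL1, a procollagen protease (0.99 ± 0.41 in females), and ADAMTS14 (-0.51 ± 0.22 over both sexes). For 23 genes of TGF-beta and PDGF signalling they were 0 and 0 (exposed males), 1 and 0 (exposed females) and 4 and 0 (sex in controls), led by the ligand PDGFD (0.58 ± 0.26 in females). For the 17 of 22 matrix-degrading proteases tested they were 0 and 0 (exposed males), 1 and 1 (exposed females) and 3 and 0 (sex in controls). MMP14, the membrane protease that activates MMP2, had -0.22 ± 0.08 over both sexes, and MMP7, an epithelial protease, had 2.0 ± 0.80 in females with its highest level in 8649, while MMP13 was at 0 counts in every lamb. For the 16 of 18 matrix-binding integrins and receptors tested they were 0 and 0 (exposed males), 3 and 0 (exposed females) and 4 and 0 (sex in controls), led by ITGA3 (0.86 ± 0.37) and ITGA10 (0.48 ± 0.21) in females. For the 11 of 12 retinoid storage genes tested they were 0 and 0 (exposed males), 0 and 0 (exposed females) and 0 and 0 (sex in controls). This list summed to 3454 to 7877 CPM per lamb, of which LRAT, given next, was a small part. The list was therefore not read as a marker of stellate cells. LRAT, the enzyme that makes retinyl esters, spanned 10.7 to 25.6 CPM (median 15.4) in biosolids males, against 10.6 to 27.3 CPM (median 16.1) in control males. Among females, LRAT spanned 12.2 to 24.7 CPM (median 18.1) in biosolids lambs, against 13.8 to 28.6 CPM (median 19.9) in control lambs.

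Markers of other cells that make or border matrix were summed per lamb. The 10 smooth muscle markers ranged over 288 to 463 CPM in biosolids males, 333 to 406 in control males, 271 to 395 in biosolids females and 250.2 to 393 in control females. The 10 portal fibroblast markers, of which MFAP5 was at 0 in at least 15 lambs and THY1 is also a member, ranged over 90.8 to 158 CPM in biosolids males, 86.6 to 131 in control males, 96.6 to 149.6 in biosolids females and 69.8 to 180.2 in control females. The 10 endothelial markers ranged over 836 to 1231 CPM in biosolids males, 1074 to 1292 in control males, 906 to 1099 in biosolids females and 906 to 1320 in control females. The 9 leukocyte markers in the table, with CD68 at 0 in every lamb, ranged over 186 to 275 CPM in biosolids males, 166 to 347 in control males, 173 to 337 in biosolids females and 156 to 313 in control females. None of these sums separated the groups. The 9 mesothelial markers ranged over 38.9 to 203 CPM in biosolids males, 135 to 208 in control males, 49 to 153 in biosolids females and 42.1 to 177 in control females, so that the lowest control male was above 6 of 8 control females. The 11 cholangiocyte markers in the table ranged over 213 to 407 CPM in biosolids males, 262 to 401 in control males, 214 to 548 in biosolids females and 199 to 279 in control females. The 8 mucous genes ranged over 83.5 to 387 CPM in biosolids males, 249.9 to 424 in control males, 52.8 to 1509 in biosolids females and 143 to 329 in control females. Counts of genes higher and lower at an unadjusted p under 0.05 are given as for the pathways. Smooth muscle markers had 0 and 0 (exposed males), 2 and 0 (exposed females) and 1 and 0 (sex in controls). Portal fibroblast markers had 0 and 0 (exposed males), 0 and 0 (exposed females) and 1 and 1 (sex in controls), and endothelial markers 0 and 0 (exposed males), 0 and 0 (exposed females) and 1 and 1 (sex in controls). Cholangiocyte markers had 1 and 2 (exposed males), 3 and 0 (exposed females) and 2 and 0 (sex in controls), and mucous genes 0 and 0 (exposed males), 6 and 0 (exposed females) and 0 and 0 (sex in controls). Mesothelial markers had 0 and 0 (exposed males), 0 and 2 (exposed females) and 2 and 2 (sex in controls), leukocyte markers 0 and 0 (exposed males), 0 and 0 (exposed females) and 0 and 1 (sex in controls) and hepatocyte markers 0 and 0 (exposed males), 0 and 0 (exposed females) and 5 and 0 (sex in controls). The 13 hepatocyte markers ranged over 75917 to 125962 CPM in biosolids males, 101782 to 135414 in control males, 69023 to 128272 in biosolids females and 72372 to 131097 in control females. In controls the hepatocyte, cholangiocyte, mucous and mesothelial sums had higher medians in males than in females: 108689 against 89261 CPM, 357 against 258 CPM, 343 against 215 CPM and 173 against 91 CPM. The smooth muscle (374 against 330 CPM) and endothelial medians (1152 against 965 CPM) were also higher in control males. The portal fibroblast (121 against 134 CPM) and leukocyte medians (217 against 260 CPM) were lower in control males. For the mesothelial list the sum and the genes differed, as 4 of 7 tested were below 0 with a median log2 fold change of -1.40. These sums stand beside the higher collagen values in control males, and their part in that result was not tested.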

How the data were processed

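Total RNA was taken from frozen liver of 30 lambs, made into TruSeq libraries and sequenced on a NovaSeq, per the labels' protocols. The authors deposited 1 table of raw read counts per gene, with whole numbers and no normalization. STAR, featureCounts 1.5.0-p3, Trimmomatic, MultiQC and FastQC are named in the submitters' processing notes; the genome build and the strand setting are not given in the sources used here. Of the 31304 gene entries, 28862 matched RefSeq ARS-UI_Ramb_v3.0, and all 28855 with positions on both sides had identical start and end. A set of 7 genes was joined from 25 broken pieces, none of them among the 44 described. The number of columns without a lamb was 0.

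The 44 genes and all other lists were chosen with earlier results of these data known, and the mucous list was built from genes that an earlier analysis had named. Counts were filtered (filterByExpr over the 4 groups) and scaled by TMM. Group means were then fitted with edgeR 4.0.16 (robust quasi-likelihood, 26 residual degrees of freedom, limma 3.58.1, R 4.3.3), with Benjamini-Hochberg adjustment over 17840 genes, and 6 contrasts were tested: exposure in each sex and over both, their difference between sexes, and sex in each exposure group. Levels are TMM-scaled CPM, correlations used log2 CPM with a prior count of 2 and 100000 permutations within groups (scipy 1.17.1), and figures were drawn with matplotlib 3.10.9. The fits were tested on simulated data.

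Full group values are given for members at an unadjusted p under 0.05 in an exposure contrast or the interaction, for the 5 highest and 5 lowest per kilobase and for those with an outlying lamb; of the other lists at most 2 genes with the smallest p are named, and further genes named for comparison were chosen after their values were seen. Alternatives were DESeq2 1.42.0, limma voom with quality weights, RLE scaling, no filter, a filter of 1 CPM in 15 libraries, ribosomal RNA left out and each lamb left out. Chosen after seeing the data were the ribosomal protein share as a term, leaving out females 8649 and 8668, and counts at an unadjusted p under 0.05. Precision is set by the counts of each library and by the spread between lambs. The listed genes MMP3, ASGR1, KRT7, MUC6 and CD163 were not analysed here.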

Additional observations from a re-analysis of the deposited data

Results flagged for a closer look

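For each of the 44 genes and 4 groups, the lamb farthest from the others was tested with Dixon's criterion at the 95% level. Of 176 tests 15 passed, in 14 genes. The criterion assumes normally distributed values, whereas CPM were used untransformed and the genes move together. The count can therefore not be set against a chance rate. Single lambs account for several: biosolids female 8649 for 4, control male 8364 for 3 and biosolids male 8778 for 2.

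Biosolids female 8649 was far above the next biosolids female in 4 genes. COL1A1 was at 201 CPM in this lamb, against 102 CPM in the next and a group median of 60.0 CPM. COL1A2 was at 126 CPM, against 67.4 CPM in the next. The basement membrane and elastic fibre gene FBLN2 was at 17.6 CPM, against 11.1 CPM in the next, and LOX at 3.91 CPM, against 2.09 CPM. This lamb also had the highest sum of mucous genes, 1509 CPM, and its part in the result was not tested.

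Control male 8364 stood apart in opposite directions. ASPN was at 88.4 CPM, against 34.3 CPM in the next control male, and LUM at 11 CPM, against 2.69 CPM. MMP2 was at 15.9 CPM in this lamb, against 24.9 CPM in the next lowest and a group median of 26.3 CPM. The ribosomal protein share of 8364 was 2.21%, against 1.12 to 1.29% in 5 control males. Across all lambs the slopes on the log2 of this share were 0.87 for ASPN, 1.24 for LUM and -0.50 for MMP2. Control male 8408, with a share of 2.17%, was at 27.5 CPM for ASPN, 2.69 for LUM and 27.3 for MMP2. The part of the share in these values was not tested.

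Biosolids male 8778, the library with 87.5% ribosomal RNA counts, was lowest of its group for DCN, at 12.8 CPM against 24.7 CPM in the next lowest, and for VIM, at 57.9 CPM against 102.6 CPM.

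The remaining values concern 1 gene in 1 lamb each. COL14A1 was at 73.5 CPM in control male 8408, against 55.1 CPM in the next, and ECM1 at 138 CPM in control male 8394, against 100.9 CPM. FBN1 was at 28.8 CPM in control female 8245, against 20.7 CPM. LOX was at 3.95 CPM in control female 8269, against 2.10 CPM. SERPINH1 was at 71.9 CPM in control female 8263, against 32.9 CPM, and TIMP1 at 9.01 CPM in control female 8322, against 5.35 CPM.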

How the results depend on the processing

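No paired analysis was possible because the groups share no replicate numbers: each lamb has its own tag. Under the alternatives listed the 39 single-gene results gave 1482 values, all with the sign of the reported value, and 4 passed an adjusted p of 0.05 (SPARC and MMP2 by DESeq2, HAND2 and MMP2 by limma voom, all for sex in control lambs), so that 2 members were called there by DESeq2 and 2 by limma voom, against 0 by edgeR. The cause was not tested.

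The number of members at an unadjusted p under 0.05 moved more. For exposure in males it was 3, and 5 with limma voom. For exposure in females it was 4, and 1 without females 8649 and 8668. For exposure over both sexes it was 3, 5 with limma voom and 1 without those females. For the interaction it was 5, 2 with limma voom and 1 without those females. For sex in biosolids lambs it was 4, and 11 with limma voom. The cause of the limma voom counts was not tested.

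Leaving out 1 lamb at a time, the counts ran from 1 to 5 for exposure in males, 2 to 6 in females, 1 to 4 over both sexes, 2 to 8 for the interaction, 3 to 8 for sex in biosolids lambs and 17 to 23 for sex in control lambs, and none was called in any of these fits. In males the count was 1 without biosolids males 8735, 8764 or 8778 or control males 8394 or 8408, and 5 without biosolids male 8770. In females it was 2 without biosolids female 8649 or 8653 or control female 8360. Over both sexes it was 1 without any of biosolids females 8647, 8653 and 8714, biosolids males 8735, 8764 and 8778, control females 8245, 8269 and 8313 or control males 8394 and 8408. The interaction had 2 without 8649, 3 without 8668 and 8 without biosolids male 8762. Sex in biosolids lambs had 7 without 8733 and 8 without 8778. The correlation of COL1A1 with SERPINH1 was 0.259 without male 8778.

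Depth limits the scarce members most: FBLN1 and THY1 had 1 count in their lowest library, that of male 8778. The biological coefficient of variation over genes was 35.2%, and intervals of single genes in the report show what size of difference these groups could not exclude.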
